A study of Mus musculus with 8 samples.

Results

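The nuclear factor I (NFI) family has 4 genes in the mouse, Nfia, Nfib, Nfic and Nfix. All 4 were chosen by symbol, through RefSeq accessions on the array, among 19414 genes tested, of which 13836 carry a symbol. RNA came from the neocortical wall of ICR mouse embryos at embryonic day 16. Manual dissection gave the inner germinal layers, the ventricular plus subventricular zone (V/SVZ), where progenitors divide, and the outer cortical plate (CP), to which young neurons migrate. No genotype or treatment separates the groups, so tissue is the only labelled difference. Each tissue had 4 samples, each on its own 1-colour Agilent array, and the labels do not tie samples to animals, so that a p-value reflects only variation among these samples, possibly technical. The question was whether transcripts of the 4 factors are divided between germinal zone and plate. The family was read by 11 probes: 2 for Nfia, 5 for Nfib, 3 for Nfic and 1 for Nfix, all well above background on all 8 arrays.

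NFI proteins are transcription factors that bind DNA as dimers, through a conserved domain near the amino terminus, at a palindrome built from the core TTGGC. They can activate or repress their targets. In the embryonic forebrain Nfia, Nfib and Nfix are known for moving radial glia towards differentiation and for the onset of gliogenesis, and mice without Nfia or Nfib fail to form a normal corpus callosum. Nfic is known above all for its part in tooth root formation.

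Promoter sequences are shown for Nfic and Nfix, the members with the largest tissue differences and of opposite direction, and for Nfia as the comparison. They are RefSeq windows on build GRCm38.p6, from 250 bases before to 50 bases after a transcription start, printed 5′ to 3′ as the table gives them, with each TTGGC core in capitals on either strand. The Nfia window is chr4:97581693-97581992 (plus strand), the Nfic window chr10:81427124-81427423 (minus strand), and the Nfix window, the fourth of 4 listed starts, chr8:84772826-84773125 (minus strand).
Nfic: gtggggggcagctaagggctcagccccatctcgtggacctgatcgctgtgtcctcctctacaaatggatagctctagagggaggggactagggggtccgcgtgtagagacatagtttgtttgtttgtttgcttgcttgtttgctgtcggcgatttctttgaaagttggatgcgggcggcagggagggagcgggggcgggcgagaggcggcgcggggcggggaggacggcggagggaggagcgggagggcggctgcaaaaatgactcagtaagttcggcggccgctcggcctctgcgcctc
Nfix: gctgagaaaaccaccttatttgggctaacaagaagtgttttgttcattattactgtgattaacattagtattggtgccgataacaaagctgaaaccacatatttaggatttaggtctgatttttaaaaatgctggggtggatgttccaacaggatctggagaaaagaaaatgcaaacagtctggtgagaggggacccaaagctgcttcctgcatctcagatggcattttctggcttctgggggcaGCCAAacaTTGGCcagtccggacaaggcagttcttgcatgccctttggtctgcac
Nfia: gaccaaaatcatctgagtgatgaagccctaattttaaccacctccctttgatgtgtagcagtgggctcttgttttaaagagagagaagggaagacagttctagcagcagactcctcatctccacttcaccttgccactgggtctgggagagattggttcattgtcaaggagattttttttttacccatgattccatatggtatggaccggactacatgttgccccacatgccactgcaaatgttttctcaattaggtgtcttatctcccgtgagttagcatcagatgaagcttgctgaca
The core stood 2 times in the Nfix window shown and 0 times in those of Nfic and Nfia. In the other Nfix windows it stood 0, 1 and 1 times. A core on either strand was found in 46.7% of 32851 promoter windows, so 3 of 6 member windows is close to what any window gives. These 6 windows cover 3 genes, Nfia, Nfic and Nfix; Nfib has none here. The full palindrome, TTGGC and its reverse complement with 5 bases between, was in none of the 6 member windows and in 12 of all windows (0.0365%). The 2 cores of the Nfix window face the other way round and are not that palindrome. GC content was 63.0% in the Nfic window, 44.3% in the Nfix window shown and 44.7% in the Nfia window, beside a median of 52.7% over all windows. The other Nfix windows had 49.3%, 57.3% and 53.0%, so the one shown has the most cores and the lowest GC content of that gene.

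The tissues matched their labels on defining markers: all 9 progenitor markers were higher in V/SVZ and all 8 plate neuron markers higher in CP. Pax6 and Eomes had log2 differences (V/SVZ minus CP) of 7.24 ± 0.13 and 8.39 ± 0.18 (SE, n = 4 per tissue), and Bcl11b and Tbr1 of -2.79 ± 0.07 and -1.53 ± 0.08. Markers of other cells were also present. Summed signals, in multiples of the array's 75th percentile, ran from 8.62 to 12.2 in V/SVZ and from 2.69 to 3.78 in CP for 7 microglia genes, of which 6 were higher in V/SVZ. They ran from 7.83 to 8.75 and from 6.23 to 7.14 for 8 endothelial and pericyte genes, with 3 higher in V/SVZ and 0 in CP, and from 6.42 to 7.52 and from 8.30 to 8.96 for 7 interneuron genes, with 4 higher in V/SVZ and 3 in CP. Meningeal fibroblast genes (6 tested) ran from 0.676 to 1.07 and from 0.767 to 0.921, with 1 higher in V/SVZ and 2 in CP, and oligodendrocyte lineage genes (5 tested) from 1.12 to 1.47 and from 0.837 to 1.08, with 2 higher in V/SVZ. Of 4 blood genes 3 were tested, with 2 higher in V/SVZ, and of 3 choroid plexus genes 1 was tested and not called. The part of these cells in the NFI values was not tested. Slide 1 carried V/SVZ alone and slide 2 carried CP alone, so slide and tissue cannot be told apart.

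Nfic was higher in the germinal zone and Nfix higher in the plate, while Nfia and Nfib were nearly level, with small differences towards CP. The representative probe of a gene, its probe with the highest mean signal, gave log2 differences of 1.05 for Nfic, -0.96 for Nfix, -0.26 for Nfib and -0.21 for Nfia. Nfic probes 2 and 3 gave larger differences, 1.42 and 1.30. In limma, 10 of the 11 probes passed the adjusted p threshold of 0.05 (Benjamini-Hochberg over 23867 probes), 3 towards V/SVZ and 7 towards CP. The background is high: 79.7% of all probes passed, with 35.2% towards V/SVZ and 44.4% towards CP, and the 4 arrays of each tissue did not overlap in 75.5%. Counted by gene, 79.5% passed and 75.1% did not overlap. Probes at least 2-fold apart and called made up 30.2% of all, and genes 30.2%; of the family, the 3 Nfic probes were. The count of called member probes therefore says little, and the sizes matter more. The median absolute difference over all genes was 0.55. Larger absolute differences than that of Nfic were found in 29.1% of genes and larger than that of Nfix in 31.7%, against 71.2% for Nfib and 76.5% for Nfia. In bulk tissue, fewer cells of a type and less RNA per cell cannot be told apart.

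**Figure D1:**
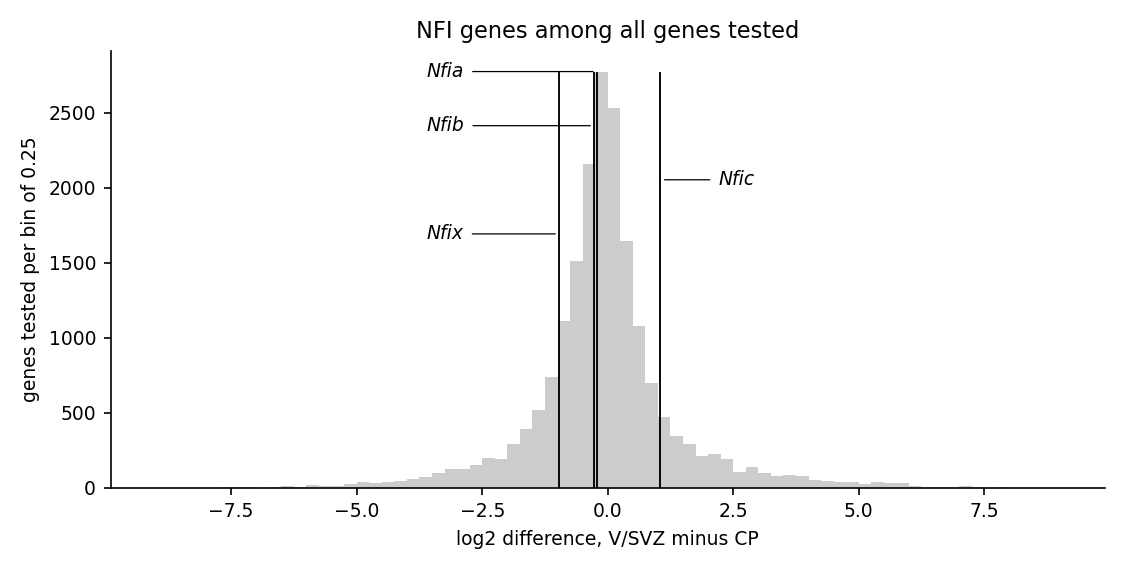
Histogram of the log2 difference, V/SVZ minus CP, of the 19414 genes tested (horizontal axis, bins of 0.25; vertical axis, number of genes), with vertical lines at the representative probe of each NFI gene. Nfia (-0.21) and Nfib (-0.26) lie near the peak, and Nfix (-0.96) and Nfic (1.05) lie on opposite flanks.

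Nfic was measured by 3 probes to the same accession (NM_008688), and all 3 were higher in V/SVZ. On probe 1, log2 signals relative to the array's 75th percentile were 1.50, 1.41, 1.41 and 1.50 on V/SVZ arrays 1 to 4 and 0.32, 0.42, 0.43 and 0.45 on CP arrays 1 to 4. The tissues were apart by far more than the spread within either, with means of 1.45 ± 0.05 and 0.41 ± 0.06 (SD, n = 4 each). The difference of 1.05 (95% interval 0.95 to 1.15) is 2.07-fold, with limma adjusted p = 1.26e-07.

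Probe 2 of Nfic gave the largest difference of the family. Its log2 signals were 1.61, 1.63, 1.59 and 1.58 in V/SVZ and 0.09, 0.25, 0.24 and 0.15 in CP, again without overlap. That is a 2.67-fold difference (log2 1.42, 95% interval 1.32 to 1.52, limma adjusted p = 2.46e-08). On probe 3, the dimmest of the 3, with 234 to 897 intensity units, the log2 signals were -1.86, -1.55, -1.51 and -1.87 in V/SVZ and -3.27, -2.78, -2.84 and -3.10 in CP. Arrays 2 and 3 were high and arrays 1 and 4 low within both tissues, and the groups still did not overlap. Its difference was 1.30 (95% interval 0.98 to 1.62, 2.46-fold, limma adjusted p = 4.03e-05). The difference of probe 1 was smaller than that of probe 2 by 0.37, and the per-array gap between these probes did not overlap between tissues, at the smallest p that 4 against 4 arrays allow (exact two-sided permutation p = 0.0286). After adjustment over the 14 pairs of probes of the same gene this was 0.200, and with so few arrays that adjustment could not bring a few pairs under the threshold. So the size of the Nfic difference, 2.07-fold to 2.67-fold, is known only within its probes' disagreement.

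Nfix, a factor of neural stem cells and of postnatal brain development, was measured by 1 probe (NM_010906) and went the other way. Its log2 signals were 4.75, 4.53, 4.74 and 4.76 on the V/SVZ arrays and 5.62, 5.52, 5.86 and 5.63 on the CP arrays. V/SVZ replicate 2 was the lowest of all 8 and CP replicate 3 the highest, and the lowest CP array was still above the highest V/SVZ array. The means were 4.69 ± 0.11 in V/SVZ and 5.66 ± 0.14 in CP (SD, n = 4 each). The difference of -0.96 (95% interval -1.16 to -0.76) is 1.95-fold higher in CP, with limma adjusted p = 1.39e-05. No other probe shows whether this holds along the transcript.

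**Figure D2:**
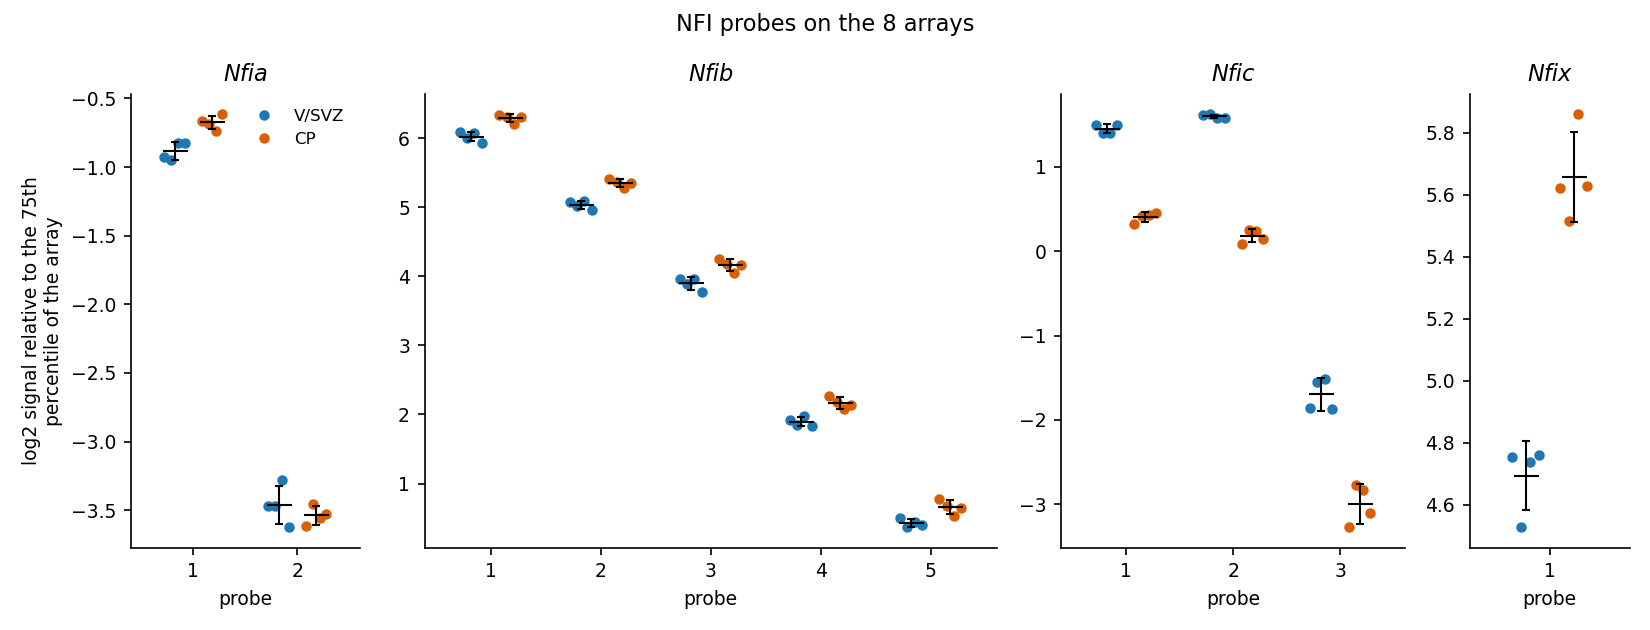
Log2 signal relative to the array's 75th percentile (vertical axes, which differ between panels) of each NFI probe on the 4 V/SVZ (blue) and 4 CP (orange) arrays, with bars for mean and SD. The 3 Nfic probes are higher in V/SVZ, the Nfix probe and the 5 Nfib probes are higher in CP, and Nfia probe 2 overlaps. Heights of different probes are not comparable.

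Nfib, which acts in forebrain and lung maturation, had 5 probes, and all 5 were slightly higher in CP. On probe 1 the log2 signals were 6.08, 6.00, 6.07 and 5.93 in V/SVZ and 6.34, 6.31, 6.20 and 6.30 in CP. The groups did not overlap, by a narrow margin. The difference was -0.26 (95% interval -0.38 to -0.15), or 1.20-fold higher in CP (limma adjusted p = 0.00121). The other probes gave -0.31, -0.26, -0.28 and -0.23, with limma adjusted p between 0.000291 and 0.00727. Probe 4 is assigned to NM_008687 and the others to NM_001113209, and the probes also moved together from array to array: CP replicate 1 was the highest and CP replicate 3 the lowest CP array on all 5. Among the 10 pairs of Nfib probes the largest gap between tissue differences was 0.08. The gap of probes 1 and 2 was 0.04, and its per-array values did not overlap between tissues (exact two-sided permutation p = 0.0286, adjusted p = 0.200), while the other 9 pairs overlapped.

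Nfia, whose loss delays astrocyte formation, had 2 probes whose differences had opposite signs, of which 1 was called. Probe 1 (NM_010905) had log2 signals of -0.93, -0.95, -0.83 and -0.82 in V/SVZ and -0.66, -0.68, -0.74 and -0.61 in CP. Every CP array was above every V/SVZ array, by a narrow margin. The difference of -0.21 (95% interval -0.31 to -0.10) is 1.16-fold higher in CP (limma adjusted p = 0.00326). Probe 2 (NM_001122953) had -3.47, -3.47, -3.28 and -3.62 in V/SVZ and -3.62, -3.45, -3.55 and -3.53 in CP. These overlapped, with a difference of 0.08 (95% interval -0.09 to 0.25, limma adjusted p = 0.361). This dim probe, at 184 to 263 intensity units, does not settle whether that transcript variant differs. The gap between the 2 probes' differences was -0.28, of the same sign in all 4 same-numbered pairs of arrays (exact permutation p = 0.0571, adjusted p = 0.200 over the 14 pairs).

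The small Nfia and Nfib differences rest on how arrays were scaled to each other, and those of Nfic and Nfix do not. As the scanner gave them, signals of Nfia probe 1 were 1268 to 1442 intensity units in V/SVZ and 1303 to 1429 in CP, and those of Nfib probe 1 were 152954 to 172427 and 159716 to 183468, so both overlapped. Without scaling the log2 differences were -0.00034 for Nfia probe 1 and -0.06 for Nfib probe 1, and none of the 6 probes called for these genes was called towards CP. Scaled to the array median, Nfia probe 1 had -0.12 (limma adjusted p = 0.183) and Nfib probe 1 -0.18 (limma adjusted p = 0.0496). Scaled to 7 spike-in RNAs they had -0.29 and -0.35. Nfic probe 1 stayed between 0.80 and 1.26 and Nfix between -1.04 and -0.75 under all scalings and background corrections tried on the scanner files. The median of all genes was itself -0.09 after scaling to the 75th percentile, and relative to it Nfia was at -0.12, Nfib at -0.17, Nfic at 1.14 and Nfix at -0.87.

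**Figure D3:**
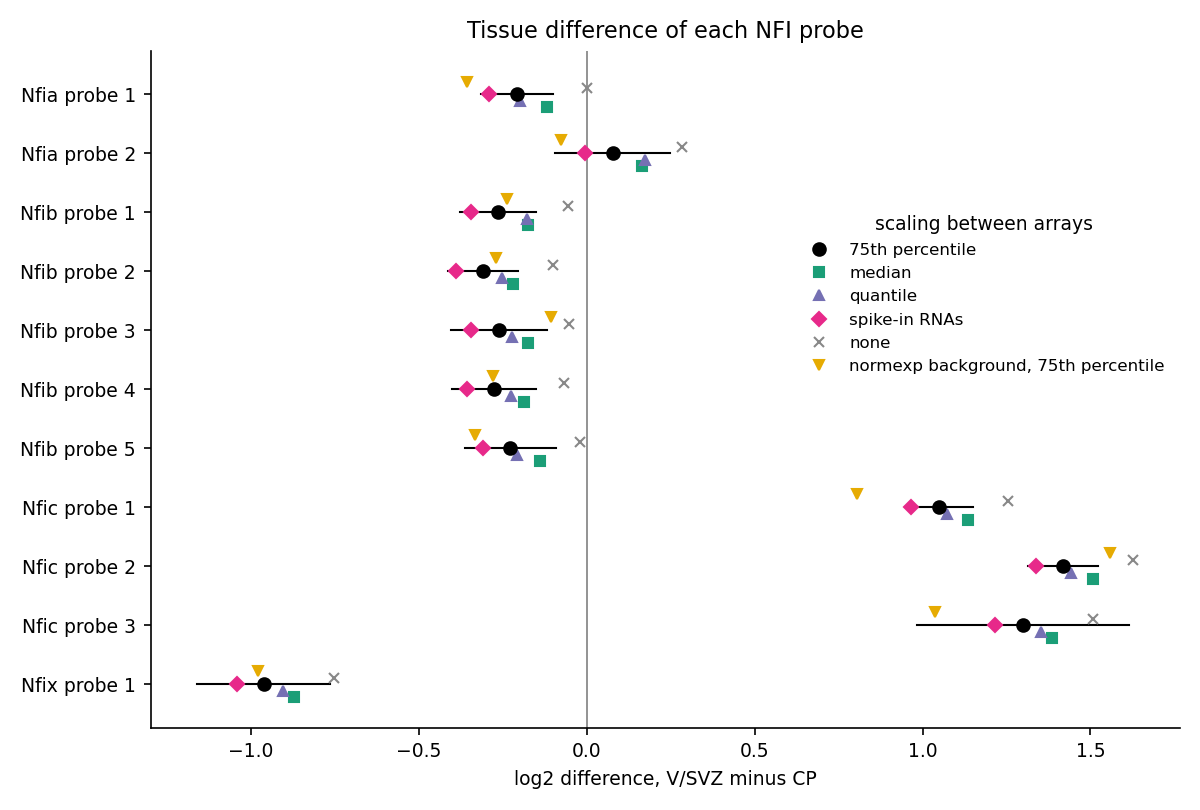
Log2 difference, V/SVZ minus CP (horizontal axis), of each NFI probe under 6 ways of scaling or background correction, with the 95% interval for the 75th percentile scaling as a line. All Nfic markers lie at 0.80 or above and all Nfix markers at -0.75 or below, while those of Nfia and Nfib lie between -0.39 and 0.28, with probe 2 of Nfia on both sides of 0.

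Comparing members within each array removes the scaling, since it is common to both values. The Nfic signal over the Nfix signal differed between the tissues by 2.01 on the log2 scale, with SDs over arrays of 0.09 in V/SVZ and 0.15 in CP. The tissue difference of Nfia minus that of Nfic was -1.26, and that of Nfib minus that of Nfic -1.31. Nfix stood apart from Nfia by 0.75 and from Nfib by 0.70. In these 5 of 6 pairs the 4 V/SVZ and 4 CP arrays did not overlap, each at the smallest p that the design allows (exact two-sided permutation p = 0.0286, adjusted p = 0.0343 over 6 pairs). That test relabels all 8 arrays freely. Relabelled only within the 4 same-numbered pairs, each of the 5 had the same sign in 4 of 4 pairs, at the smallest p which that design allows (exact permutation p = 0.125, adjusted p = 0.150), so it cannot reach 0.05. For the pairs with Nfic both outcomes were fixed by the single genes. Nfic did not overlap towards V/SVZ, and each other member did not overlap towards CP on its representative probe. These tests therefore add no support. Of all single genes 75.1% did not overlap, and the share among pairs of other genes was not computed. Nfia and Nfib differed by 0.06, with SDs of 0.11 and 0.04 and overlapping groups (exact permutation p = 0.486). With the mean of all probes of a gene the gap of Nfia and Nfib was 0.20 (exact permutation p = 0.0286). After normexp background correction it was -0.12 (exact permutation p = 0.0857).

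**Figure D4:**
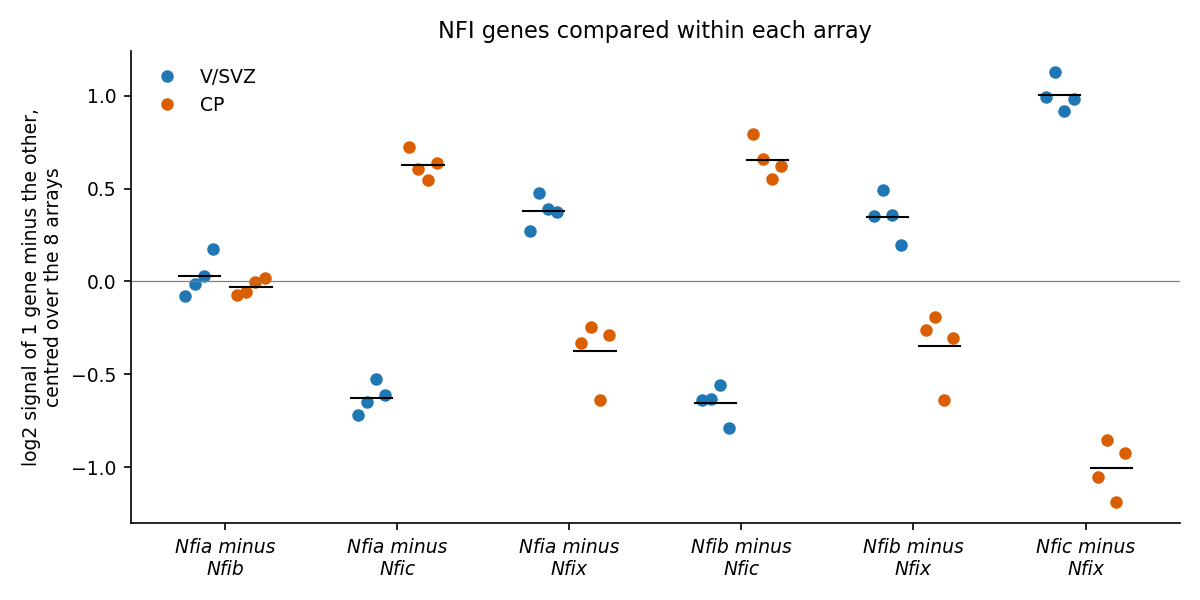
Log2 signal of 1 NFI gene minus that of another on the same array (vertical axis, centred over the 8 arrays), for the 6 pairs (horizontal axis), with V/SVZ arrays in blue, CP arrays in orange and bars at the means. The tissues separate in every pair but Nfia minus Nfib, and most widely in Nfic minus Nfix (2.01). How often pairs of other genes separate was not computed.

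Genes whose pattern over the 8 arrays came nearest to each member were found by the root mean square distance of log2 signals centred on each probe's own mean, among 13812 genes with a symbol. For Nfic they were Rnf217 (distance 0.0350, log2 difference 1.01), Efcab14 (0.0391, 1.08) and Ankrd40 (0.0421, 1.07). For Nfix they were Zfp341 (0.0667, -0.94), Brinp2 (0.0686, -0.97) and Tdpoz7 (0.0727, -0.99). For Nfib they were Tmem184c (0.0214, -0.29), Slmap (0.0238, -0.26) and Rpgr (0.0285, -0.28), and for Nfia Phlpp2 (0.0347, -0.19), Tdrp (0.0350, -0.27) and Nsd3 (0.0365, -0.26). The nearest genes of Nfix were further off than those of the other members. All were picked by distance over these same arrays, so their similar differences follow from the choice. No shared regulation was tested.

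Genes tied to NFI factors as regulators, described targets or protein partners went both ways, many by more than the factors themselves. The list holds 28 genes, of which 27 were tested: 16 rose towards V/SVZ (59.3%, against 34.9% of all genes), 7 towards CP (25.9%, against 44.6%) and 4 were not called. Its median difference was 0.95, against -0.09 over all genes. Of the 16, Chil1, Insc, Hes1 and Aqp4 were well above background on all V/SVZ arrays but not on all CP arrays. These genes passed the filter only through the tissue where they are high, so their calls add little. Among probes well above background on all arrays, 12 listed genes were called higher in V/SVZ. The list holds many progenitor and glial genes and was chosen with earlier results of these data known, so nothing is read from it about NFI activity.

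Among 5 regulators, 4 were higher in V/SVZ. Sox9, a factor that induces Nfia in glial progenitors and then works with it, had log2 signals on average 4.88 ± 0.10 (SE, n = 4 per tissue) above those of CP, or 29.5-fold (limma adjusted p = 2.40e-09). Zbtb20, a zinc finger factor of astrocyte formation, was 14.7-fold higher, Pou3f2 2.12-fold and Rbpj, the DNA-binding factor of Notch signalling, 1.86-fold. Notch1 was not called on its brighter probe (-0.55 ± 0.31 SE, limma adjusted p = 0.131), while its other probe was called at 4.28.

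Of 15 genes described as activated by NFI factors 14 were tested, and they went both ways. Higher in V/SVZ were 8: the radial glia genes Fabp7 (41.7-fold) and Slc1a3 (17.3-fold), Zcchc24 (5.86-fold), Bbx (4.42-fold), Aqp4 (2.89-fold, with 1 of 4 CP arrays well above background), Mmd2 (2.10-fold), Chil1 and Insc. The last 2 were not well above background on any CP array, so their folds rest on the floor used for CP. Against that floor they were 39.0-fold for Chil1 and 2.94-fold for Insc. The floor was the higher of the CP value and the lowest signal well above background on each CP array. Normexp background correction gave smaller differences, so these folds are not lower bounds. Higher in CP were 4: the receptor gene Ephb1 (28.9-fold), the axonal adhesion gene Cntn2 (3.23-fold), Sparcl1 (1.64-fold) and the cadherin gene Cdh2 (1.30-fold). Both Cntn2 and Ephb1 are NFI targets described in cerebellar granule neurons. Apcdd1 (0.06 ± 0.09 SE) and the brighter Gfap probe (0.07 ± 0.13 SE) were not called, and the other Gfap probe was called at 3.34. Even the brighter Gfap probe was dim, with mean log2 signals of -5.19 in V/SVZ and -5.26 in CP. The other was dimmer still and low in CP, so the size of its difference is uncertain. Gabra6, a target of the postnatal cerebellum, was not tested.

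Genes described as repressed by NFI factors were divided too. Hes1, a Notch effector that keeps progenitors undifferentiated, was 10.9-fold higher in V/SVZ, but was not well above background on any CP array. The polycomb methyltransferase gene Ezh2 was 1.94-fold higher in V/SVZ and Mag 1.45-fold. The myelin gene Mbp was 2.98-fold higher in CP. Among 4 partners, Sox9 and Olig2 (2.33-fold) were higher in V/SVZ, Ski, a corepressor, was 2.47-fold higher in CP, and Sox10 was not called (-0.08 ± 0.11 SE). Normexp correction shrank the differences of genes near background in CP. The log2 differences were then 2.91 for Chil1, 1.95 for Hes1, 0.61 for Insc and 0.45 for Aqp4. Smaller differences shrank too, to 0.18 for Mag and -0.19 for Cdh2, and Gfap and Apcdd1, not called before, had -0.27 and -0.10.

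**Figure D5:**
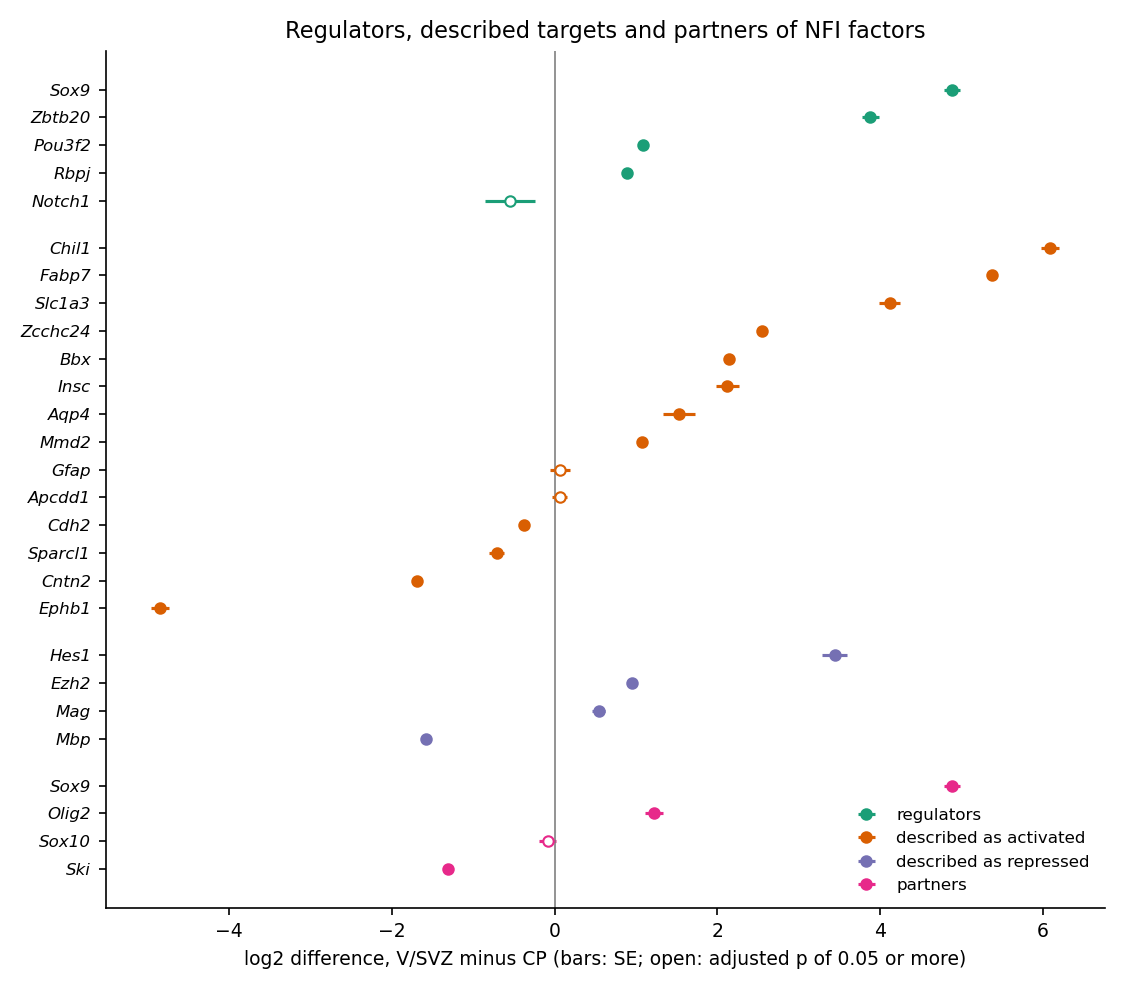
Log2 difference, V/SVZ minus CP (horizontal axis), with its SE from the limma fit (4 arrays per tissue), of tested regulators, described targets and partners of NFI factors (1 is not drawn), coloured by list, open where the adjusted p was 0.05 or more. Sox9 is drawn in both of its lists. Fitted differences run from -4.85 for Ephb1 to 6.09 for Chil1, which was not well above background in CP.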

How the data were processed

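The labels' protocols state that 100 ng of total RNA was amplified, labelled with Cy3 and hybridised. The deposited intensity values, per the file headers, are processed signals from Feature Extraction 10.7.1.1, whose files also hold background-subtracted signals and spatial detrending statistics for each array. The authors also deposited a log2 table, centred by row, with column medians of -0.03 to 0.02. Its log2 base was inferred from the scanner values, and its filter and scaling are unknown. Every column tracked the array that has its number in the opposite tissue (r at least 0.9996, against -0.95 to -0.94 with its own), so it served only as an alternative with the direction turned.

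Values were log2 processed signals minus each array's 75th percentile (2113 to 2566 intensity units). Control and outlier spots were left out. A probe was tested where well above background on all arrays of a tissue (23867 of 39429; 58.5% to 62.9% were so on each array). RefSeq accessions (GRCm38.p6) named 26761 probes. The array header names mm9. Probe-level fits used limma 3.58.1 under R 4.3.3 (lmFit, then eBayes) and were checked on simulated data. The simulation had independent noise and few changed probes, so it does not cover slide effects or shared deviations of arrays. Log2 differences are V/SVZ minus CP, and folds are given in the direction named, the higher tissue over the lower. The number of arrays limits the precision.

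Same-numbered arrays of the tissues deviated together (correlations 0.12 to 0.34), which comes from the data and not the labels. No such values are given for differently numbered arrays, and what the numbers stand for was not tested. The members and lists were chosen with earlier results of these data known. Every member probe was named, with the 3 nearest genes per member (clone, predicted and accession names passed over) and the listed genes, of which 1 is counted but not reported here. Protein sequences were not used here. Alternatives were scaling (median, quantile, spike-in), normexp (offset 50, on median signals), filters, outlier spots, probe choice, replicate block, variance model, array weights, the deposited table and each array left out. The unscaled signals, the table as named, permutation within pairs and the neighbouring genes were chosen after seeing the data.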

Additional observations from a re-analysis of the deposited data

Results flagged for a closer look

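In Nfix, V/SVZ replicate 2 lay at 4.53 on the log2 scale, below the other V/SVZ arrays (4.74 to 4.76), with a gap of 0.908 of the range, above Dixon's 95% critical value for 4 samples. It was the only such array among 22 groups of 4, and chance flags about 1 in 20. Without it the Nfix difference was -0.91 (limma adjusted p = 4.55e-05).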

How the results depend on the processing

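All 3 Nfic probes and the Nfix probe kept their direction and call under every alternative run on the scanner files. Leaving out each array in turn gave Nfic probe 1 differences of 1.02 to 1.06, Nfix -1.01 to -0.89, Nfib probe 1 -0.29 to -0.23 and Nfia probe 1 -0.23 to -0.19, all called. With a replicate block no member probe changed its call (Nfia probe 1 had -0.21, limma adjusted p = 0.0102). In the permutation test within pairs, added after seeing the data, the gaps of -1.26, 0.75, -1.31, 0.70 and 2.01 between members had adjusted p = 0.150, where 4 pairs cannot reach 0.05. Median scaling left 3 probes called higher in CP. Nfia probe 1 (-0.12) and Nfib probes 3, 4 and 5 (-0.17, -0.19 and -0.14) lost the call. Without scaling 1 was left, the Nfix probe. Nfia probe 1 at -0.00034 and Nfib probe 1 at -0.056 were then not called, while Nfia probe 2 was called higher in V/SVZ (0.28, as also by median and quantile scaling, 0.16 and 0.17). The mean of the Nfia probes was -0.066. Normexp left 6 probes called higher in CP, and Nfib probe 3 lost the call, at -0.11 (limma adjusted p = 0.100). Nfia probe 2 turned to -0.076 after normexp and -0.0050 with spike-in scaling. The gap of Nfia and Nfib was 0.20 with the mean of probes and turned to -0.12 after normexp. The turned deposited table called Nfia probe 1, all Nfib probes and Nfic probes 1 and 2 in the same direction. Nfic probe 3 and the Nfix probe had no value in that table, so it gave no check of Nfix. With its columns as named the table gave the opposite: 0.20 for Nfia probe 1, -0.081 for Nfia probe 2, 0.26, 0.30, 0.26, 0.27 and 0.22 for Nfib probes 1 to 5, and -1.05 and -1.42 for Nfic probes 1 and 2. Linked genes called higher in V/SVZ ranged from 12, with only probes well above background on all arrays, to 17 without scaling. Those called higher in CP ranged from 7 to 8. Nfic probe 3, at 234 to 897 intensity units, had the widest interval of the 11 probes.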

Other observations

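The nearest protein-coding neighbours of the NFI genes on the chromosome, taken after the members' values had been seen, were measured in 6 cases, and 4 were called, beside 79.5% of all genes. Beside Nfic (chromosome 10), the RNA-binding protein gene Celf5 was higher in CP (log2 difference -1.94 ± 0.18 SE, limma adjusted p = 2.09e-05). Beside Nfix (chromosome 8), Lyl1, a basic helix-loop-helix factor of blood formation, was higher in V/SVZ (1.06 ± 0.09), and Dand5 was not called (0.07 ± 0.08). Beside Nfib (chromosome 4), the scaffold gene Mpdz (1.19 ± 0.13) and Zdhhc21 (0.45 ± 0.06) were both higher in V/SVZ. Beside Nfia, on the same chromosome as Nfib, Tm2d1 was not called (-0.07 ± 0.04). Their other neighbours were not tested.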
